A study of Mus musculus with 70 samples.

Results

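The 9 genes described here encode the core of the nuclear receptor corepressor complex (Ncor1, Hdac3, Tbl1x, Tbl1xr1 and Gps2), the p160 coactivators (Ncoa1, Ncoa2 and Ncoa3) and Med1, the Mediator subunit that contacts nuclear receptors. They were chosen by name, as the partners that thyroid hormone receptors recruit, out of 22835 genes in the RNA-seq table. All 9 were present, and all 9 were among the 13145 genes with a level above 1 CPM (read counts scaled to a common library total) in every library. A gene with several transcripts was represented by the transcript with the highest mean CPM.

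Thyroid hormone receptors sit on chromatin with or without their ligand, T3. Without T3 the receptor holds a corepressor complex, in which the scaffold NCOR1 carries the histone deacetylase HDAC3 together with TBL1X, TBL1XR1 and GPS2. When T3 binds, the receptor releases this complex and takes up p160 coactivators, which bring histone acetyltransferases, and the Mediator complex, which contacts RNA polymerase II. In the pituitary T3 lowers the hormone subunit gene Tshb and raises the growth hormone gene Gh.

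RNA-seq was made from whole pituitaries of adult male C57BL/6J mice, 3 pituitaries per library. All 4 groups were given methimazole (MMI, 0.05%) and potassium perchlorate (KClO4, 1%) in the drinking water for 4 to 5 weeks to block thyroid hormone synthesis, and the hyperthyroid groups also received T3 at 0.5 ug per ml in the last week. There were 4 hypothyroid and 4 hyperthyroid wild-type (WT) libraries and 5 hypothyroid and 5 hyperthyroid libraries of mice that lack the T3 receptor TRβ (Thrb-KO). There was no untreated group, so each T3 comparison sets excess hormone against a lack of it. The table also counted reads over the whole Thrb transcript. They stood at 257 CPM ± 27.3 (SD, n = 4) in hypothyroid WT and 271 CPM ± 20.1 (SD, n = 5) in hypothyroid Thrb-KO. The hyperthyroid ranges were apart, at 72.5 to 125 CPM in WT and 231 to 302 CPM in Thrb-KO. Thrb RNA was thus not lower in Thrb-KO in either state, so a loss of it could not serve to check the knockout labels. TRβ binding came from a separate set of untreated mice whose endogenous TRβ carried a biotin tag (HAB;BirA), with mice that had the biotin ligase alone (BirA) as controls. The 3 libraries of each genotype, from pooled pituitaries or from cerebral cortex, had been merged before peaks were called. A further list held chromatin sites whose accessibility differed between hypothyroid and hyperthyroid pituitary (ATAC-seq of Sun1-GFP nuclei marked by a Thrb2-Cre driver), without a direction.

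The libraries fell into a pair of sets by replicate number in every group. In replicates 1 and 2 the mitochondrial tRNA synthetase gene Lars2 stood between 2571 and 3420 CPM, and in replicates 3 to 5 between 53.2 and 95.1 CPM. The labels name 2 library kits without saying which library was made with which. Library totals ran from 21453548 to 55273749 reads, so that 3 reads, the limit that a count of 0 allows, equalled 0.0543 to 0.140 CPM, below every level of the 9 genes. Hyperthyroid WT replicate 3 also stood apart, with 159094 CPM of Gh against 87356 to 112135 CPM in the other hyperthyroid WT libraries. Its TMM factor, which scales CPM by the bulk of genes, was 0.849, against 0.982 to 1.04 in the other libraries. Levels and overlaps below are of CPM without this scaling. Where the sets or replicate 3 move a result, the values within each set or without that library are given beside it.

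The set of libraries separated the levels of several of these genes. Hdac3 was at 31.5 CPM ± 2.28 (SD, n = 8) in replicates 1 and 2 and at 43.4 CPM ± 3.69 (SD, n = 10) in replicates 3 to 5, with no overlap between 28.8 to 35.9 CPM and 38.5 to 50.5 CPM. Tbl1xr1 lay the other way, at 60.4 CPM ± 3.79 (SD, n = 8) against 39.4 CPM ± 4.86 (SD, n = 10), and its ranges of 53.5 to 63.3 CPM and 27.6 to 44.9 CPM did not meet. Tbl1x also separated, at 48.9 to 58.5 CPM against 24.0 to 45.0 CPM. Gps2 was slightly lower in replicates 1 and 2 (19.9 CPM ± 0.852, SD, n = 8) than in replicates 3 to 5 (22.5 CPM ± 1.16, SD, n = 10), and Ncor1, Ncoa1, Ncoa2, Ncoa3 and Med1 had higher means in replicates 1 and 2. Every group holds both sets, so the set adds to the spread within each group. WT groups hold 2 libraries of each set and Thrb-KO groups 2 and 3, so the set also enters the genotype differences. With the set as a term the log2 difference of Tbl1xr1 between Thrb-KO and WT went from 0.03 to 0.09 in the hypothyroid state. In the hyperthyroid state it went from 0.20 to 0.26, and that of Hdac3 in the hypothyroid state from -0.08 to -0.13.

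**Figure D1:**
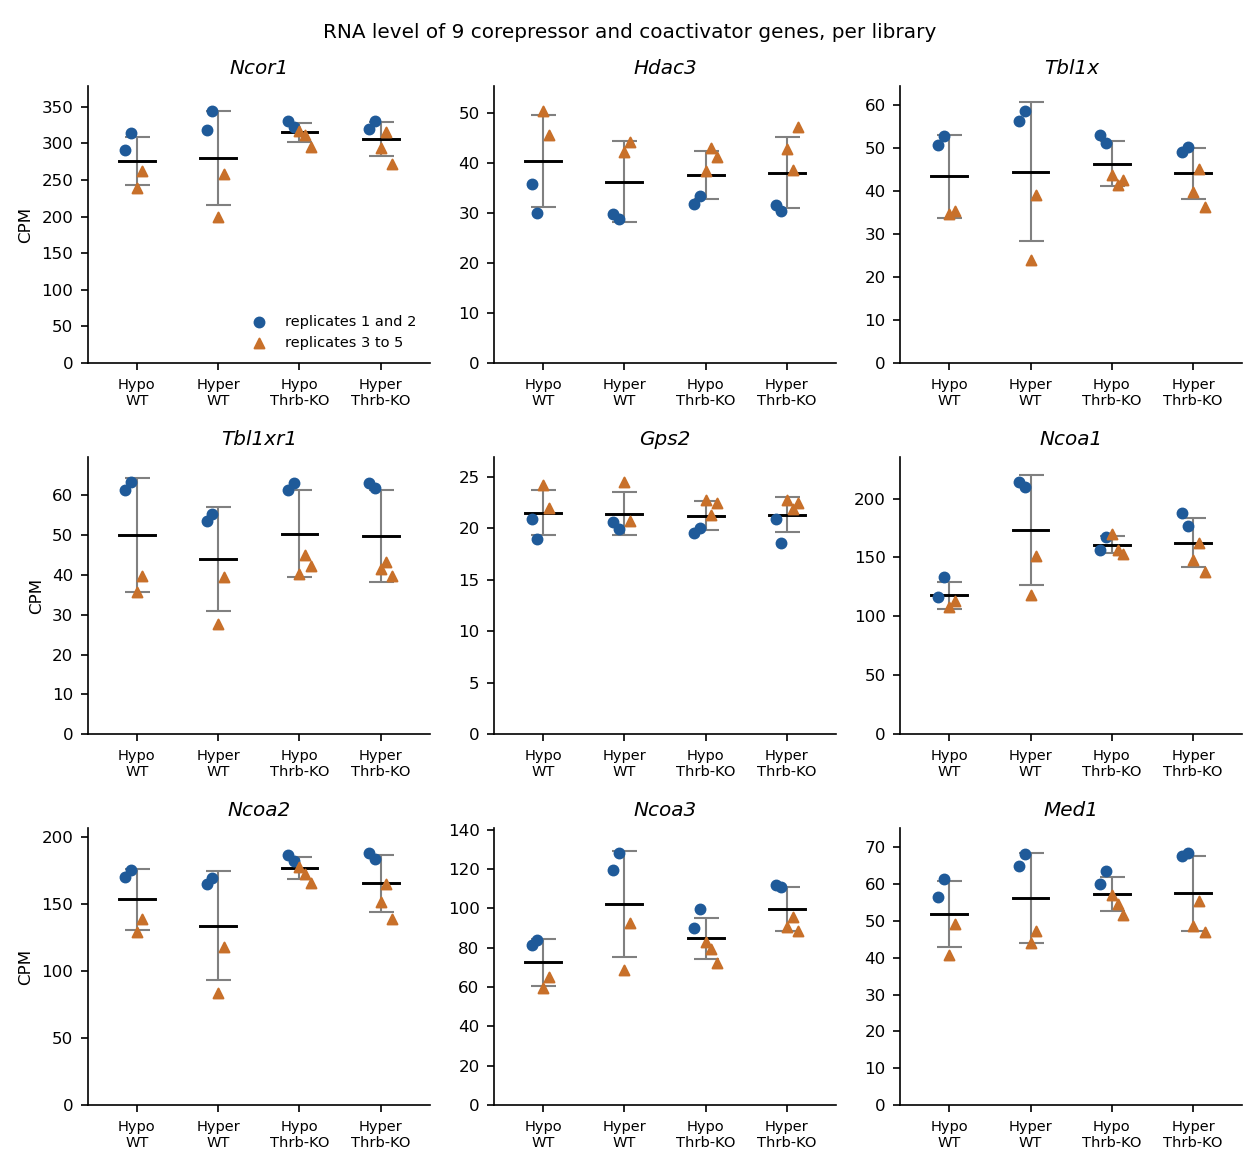
Level of each gene (vertical axis, CPM, starting at 0) in every library of the 4 groups (horizontal axis). Circles are replicates 1 and 2, triangles replicates 3 to 5, the black bar is the group mean and the grey bar the SD. Hdac3 and Tbl1xr1 split by replicate set within every group, whereas the Ncoa1 mean was lowest in hypothyroid WT, where all 4 libraries sat between 108 and 133 CPM.

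Under T3 in WT pituitary the coactivator Ncoa1 was the 1 gene of the 9 called in the main fit, and its call did not hold in every fit. Several other fits, given below, also called Ncoa3. Calls rest on limma's moderated test of log2(CPM + 1) over all 13145 genes with Benjamini-Hochberg adjustment at 0.05. Of the 9 genes, 1 passed (Ncoa1, higher), against 19.3% of all genes called in this comparison and 6.89% called higher. Median log2 fold change was -0.01 over the 9 genes and -0.04 over all genes tested. Gene counts here cannot tell fewer cells of a type from less RNA per cell in bulk tissue.

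Ncoa1, also known as SRC-1, is a p160 coactivator that binds liganded nuclear receptors. In hypothyroid WT its level was 116, 133, 108 and 113 CPM in replicates 1 to 4, and in hyperthyroid WT 214, 209.9, 118 and 151 CPM. All 4 hyperthyroid libraries stood above the hypothyroid library of the same number, by 1.09 to 1.84 fold. Hyperthyroid replicate 3 lay inside the hypothyroid range, so the groups overlapped in unscaled CPM. No label pairs libraries of the same number, so ratios and counts by number, here and below, depend on the numbering. The group means were 118 CPM ± 11.1 (SD, n = 4) and 173 CPM ± 46.7 (SD, n = 4), and the fitted log2 fold change was 0.52 ± 0.15 (SE), a 1.43-fold rise with a 95% interval of 1.15 to 1.78, at an adjusted p of 0.0194 (limma). In the sets of libraries the log2 change was 0.76 in replicates 1 and 2 and 0.27 in replicates 3 and 4, and in the second set alone, where 17.6% of all genes were called, it did not pass (limma adjusted p = 0.179). The call was lost when any of hypothyroid replicates 3 and 4 or hyperthyroid replicates 1 and 2 was left out (limma adjusted p = 0.0507 to 0.0743), and also when the WT groups were fitted without the Thrb-KO groups (limma adjusted p = 0.140, 10.3% of all genes called). Without hyperthyroid replicate 3 the log2 change was 0.69. On TMM-scaled CPM it was 0.58 (limma adjusted p = 0.00361, 20.5% of all genes called). With the library set as a term it was 0.52 (limma adjusted p = 0.00118).

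Ncoa3 (SRC-3), another p160 coactivator, followed the same order of libraries. Hypothyroid WT libraries were at 81.6, 84.0, 59.6 and 65.1 CPM and hyperthyroid WT libraries at 119.5, 128, 68.8 and 92.7 CPM in replicates 1 to 4. Each hyperthyroid library was above its hypothyroid partner in number, by 1.15 to 1.52 fold, while hyperthyroid replicate 3 lay within the hypothyroid range. In replicates 1 and 2 the log2 change was 0.57 and in replicates 3 and 4 it was 0.35. The log2 fold change was 0.46 ± 0.17 (SE; 1.38-fold, 95% interval 1.08 to 1.75). With an adjusted p of 0.0583 (limma) it missed the threshold in the main fit. With the replicate number as a block the same change passed (limma adjusted p = 9.4e-04), and this fit called 28.9% of all genes. It also passed without hyperthyroid replicate 3, at a log2 change of 0.64 (limma adjusted p = 0.00286), where 23.2% of all genes were called. On TMM-scaled CPM Ncoa3 passed at 0.53 (limma adjusted p = 0.0151, 20.5% of all genes called). With the library set as a term it passed at 0.46 (limma adjusted p = 5.2e-04). It was also called by edgeR with TMM (adjusted p = 0.0166) and by DESeq2 (adjusted p = 0.00394) on the recovered reads.

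Ncoa2 (SRC-2, GRIP1), the remaining p160 gene, had values of the opposite sign. It read 171, 175, 129 and 139 CPM in hypothyroid WT and 165, 169.7, 83.5 and 118 CPM in hyperthyroid WT. All 4 hyperthyroid libraries were below their partner in number, with ratios from 0.647 to 0.968. Its log2 difference was -0.24 ± 0.17 (SE), and the adjusted p was 0.430 (limma), with an interval of 0.659 to 1.09 fold. In replicates 1 and 2 the log2 difference was -0.05, and in replicates 3 and 4 it was -0.43. Without hyperthyroid WT replicate 3, at 83.5 CPM the lowest Ncoa2 value of all libraries, the log2 difference was -0.03, so that 1 library carried most of it. Within each set of libraries the hypothyroid and hyperthyroid values of Ncoa1 and Ncoa3 (both higher) and of Ncoa2 and Hdac3 (both lower) did not overlap. Among all genes 11.1% were higher in this way in both sets and 21.1% lower.

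None of the corepressor subunits was called under T3 in WT, where 19.3% of all genes were. The scaffold Ncor1 was at 276 CPM ± 32.8 (SD, n = 4) in hypothyroid and 279.7 CPM ± 64.4 (SD, n = 4) in hyperthyroid WT, and its 95% interval of 0.822 to 1.21 fold bounds the change the data allow. Gps2, a small subunit of the complex, was at 21.5 CPM ± 2.19 and 21.4 CPM ± 2.06 (SD, n = 4 each), with an interval of 0.871 to 1.14 fold. Hdac3, the deacetylase, stood at 40.5 CPM ± 9.23 and 36.4 CPM ± 8.14 (SD, n = 4 each), a log2 difference of -0.15 ± 0.18 (SE). For the WD40-repeat subunits the log2 differences were -0.02 ± 0.22 (SE) for Tbl1x and -0.19 ± 0.24 (SE) for Tbl1xr1, and their intervals, 0.721 to 1.35 fold and 0.621 to 1.24 fold, are too wide to speak of equal levels. Without hyperthyroid WT replicate 3 both signs turned, to log2 differences of 0.24 for Tbl1x and 0.01 for Tbl1xr1, and that for Ncor1 was 0.15, none of them called. In replicates 1 and 2 alone Tbl1xr1 was called lower under T3 (log2 change -0.19, limma adjusted p = 0.0395), in a fit that called 31.6% of all genes. Med1 gave a log2 difference of 0.10 ± 0.16 (SE), with 51.9 CPM ± 9.01 against 56.2 CPM ± 12.2 (SD, n = 4 each).

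Hormone-cell markers moved with the same comparison. The somatotroph markers Gh and Ghrhr summed to 48444 to 66337 CPM in hypothyroid and 87484 to 159203 CPM in hyperthyroid WT, the lactotroph marker Prl stood at 5863 to 9334 and 14523 to 53184 CPM, and the thyrotroph marker Tshb at 2902 to 6462 and 40.5 to 422 CPM. In Thrb-KO the same markers moved in the same direction, with Tshb at 3212 to 4832 CPM in hypothyroid and 84.9 to 169 CPM in hyperthyroid libraries. Gonadotroph markers (3 of 3 in the table) overlapped between WT conditions, at 944 to 1089 and 912 to 1026 CPM, as did the 3 of 3 corticotroph markers at 3723 to 7862 and 3369 to 8909 CPM. The 3 of 3 erythroid markers did not overlap, at 28.5 to 55.5 CPM in hypothyroid and 65.7 to 77.7 CPM in hyperthyroid WT. The neuron marker Neurod6 was at 0 to 0.0982 CPM, while the 3 of 3 neuron markers summed to 11.9 to 15.9 CPM in hypothyroid and 18.3 to 27.4 CPM in hyperthyroid WT. The part of cell numbers in the values of the 9 genes was not tested.

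In Thrb-KO pituitary T3 gave no call for any of the 9 genes in the main limma fit, and the lowest unadjusted p was 0.136 (limma), for Ncoa3. The background was small, since 1.79% of all genes were called. Ncoa1 was at 157, 168, 169.6, 157 and 153 CPM in hypothyroid and at 188, 177, 147, 162 and 138 CPM in hyperthyroid Thrb-KO, so that T3 libraries were higher in 3 of 5 pairs and lower in 2. Its log2 difference was 0.01 ± 0.13 (SE), with an interval of 0.827 to 1.22 fold, and the sets went opposite ways, at 0.17 in replicates 1 and 2 and -0.10 in replicates 3 to 5. Ncoa3 ran from 72.3 to 99.8 CPM (median 82.7) in hypothyroid and from 88.6 to 112 CPM (median 95.8) in hyperthyroid Thrb-KO. It was higher in 5 of 5 pairs by 1.09 to 1.25 fold, with a log2 difference of 0.23 ± 0.15 (SE) at an adjusted p of 0.927 (limma), and its hypothyroid and hyperthyroid values did not overlap within either set of libraries, as for 4.54% of all genes. The interval for Ncoa3 reached 1.46 fold. With the library set as a term on TMM-scaled CPM, a fit chosen after seeing the data, Ncoa3 was called at 0.24 (limma adjusted p = 0.0142). The other 7 genes had log2 differences between -0.10 and 0.01.

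**Figure D2:**
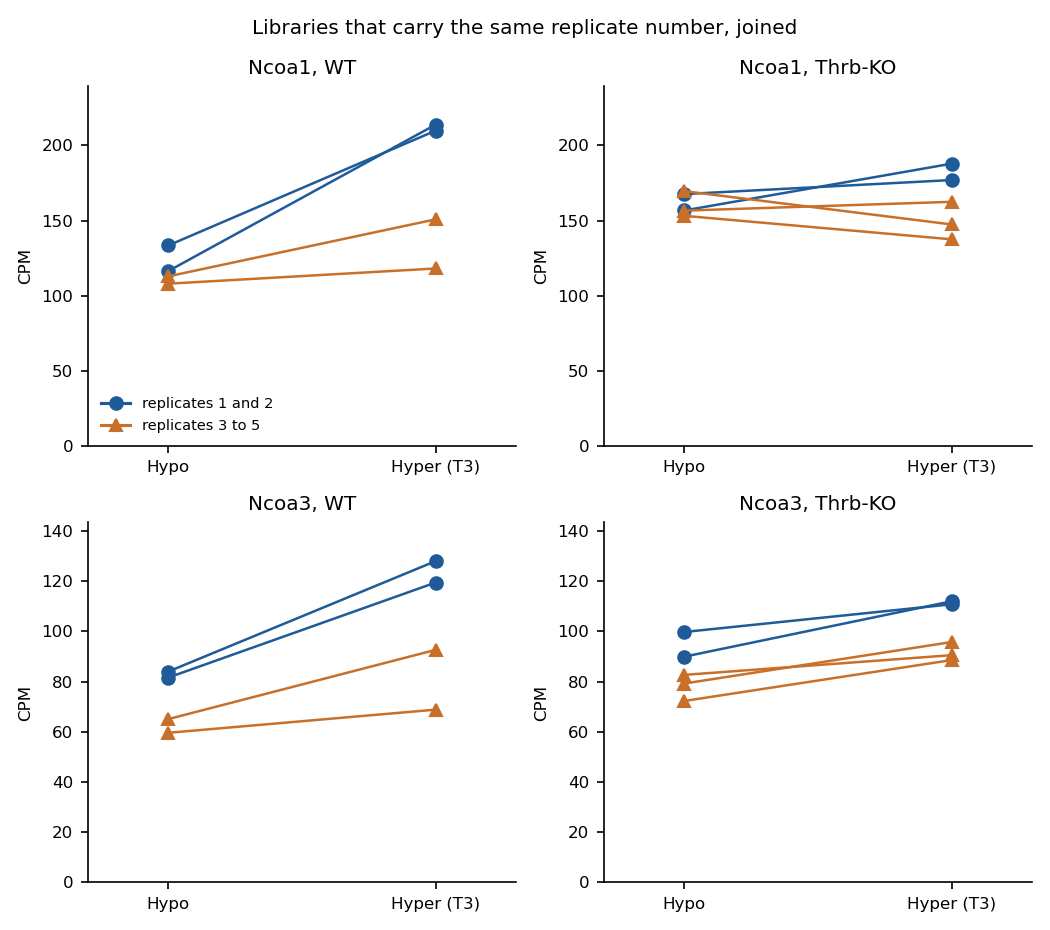
Level of Ncoa1 and Ncoa3 (vertical axes, CPM) in hypothyroid and hyperthyroid libraries that carry the same replicate number, joined by lines. Blue lines are replicates 1 and 2, orange lines replicates 3 to 5. In WT all 4 lines rise for both genes, and in Thrb-KO 3 of 5 rise for Ncoa1 and 5 of 5 for Ncoa3. The lines follow the number alone, since no label pairs the libraries.

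Whether the response to T3 differed between genotypes was tested as an interaction, the T3 difference in Thrb-KO minus that in WT. By limma none of the 9 genes passed, against 5.46% of all genes called. The unadjusted p of Ncoa1 was 0.0208 (limma). For Ncoa1 the interaction was -0.51 ± 0.20 (SE) on the log2 scale at an adjusted p of 0.196 (limma). With the replicate number as a block, a fit that called 10.8% of all genes, it passed (limma adjusted p = 0.0482). It was called by DESeq2 on the recovered reads (adjusted p = 0.0327, 8.65% of all genes called). With the library set as a term it passed at -0.51 (limma adjusted p = 0.0283). The value was -0.59 in replicates 1 and 2 (limma adjusted p = 0.00178, 9.95% of all genes called) and -0.37 in replicates 3 to 5 (limma adjusted p = 0.295, 4.1% called). Without hyperthyroid WT replicate 3 it was -0.68 (limma adjusted p = 0.0109), with 8.21% of all genes called. For Ncoa3 the interaction was -0.23 ± 0.22 (SE) at an adjusted p of 0.810 (limma). In replicates 1 and 2 alone the Ncoa3 interaction was called, at -0.34 (limma adjusted p = 0.0410), and also with the library set as a term on TMM-scaled CPM, at -0.29 (limma adjusted p = 0.0330), a fit that called 14.2% of all genes. In replicates 3 to 5 it was -0.12 (limma adjusted p = 0.789).

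In the hypothyroid state the largest difference between genotypes among the 9 genes was again that of Ncoa1. All 5 hypothyroid Thrb-KO libraries (153 to 169.6 CPM) lay above all 4 hypothyroid WT libraries (108 to 133 CPM), and 7.6% of all genes separated upward in this way. The means were 161 CPM ± 7.35 (SD, n = 5) and 118 CPM ± 11.1 (SD, n = 4), a log2 difference of 0.45 ± 0.14 (SE) or 1.37 fold (95% interval 1.11 to 1.68). Over all 4 groups the adjusted p was 0.0674 (limma), and no gene of the 9 was called in a comparison that called 6.85% of all genes. The unadjusted p of Ncoa1 was 0.00535 (limma). The difference held within both sets of libraries, at 0.38 in replicates 1 and 2 (limma adjusted p = 0.00372, 10.7% of all genes called) and 0.53 in replicates 3 to 5 (limma adjusted p = 0.0196, 8.28% called). With the replicate number as a block Ncoa1 was called at 0.49 (limma adjusted p = 0.00879) and Ncoa3 at 0.28 (limma adjusted p = 0.0475), and this fit called 14.3% of all genes. DESeq2 on the recovered reads called Ncoa1 (adjusted p = 0.0201) beside 11.9% of all genes. The library set as a term gave 0.48 for Ncoa1 (limma adjusted p = 0.00356) and 0.27 for Ncoa3 (limma adjusted p = 0.0393).

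Leukocyte markers (3 of 3) separated the same groups, at 50.6 to 55.2 CPM in hypothyroid WT and 29.3 to 35.0 CPM in hypothyroid Thrb-KO, and their part in the Ncoa1 difference was not tested. Over all 9 genes, Ncoa1 included, 7 differences were above 0, with a median log2 difference of 0.16 against 0.03 over all genes. Ncor1 had a hypothyroid mean of 315 CPM ± 13.1 (SD, n = 5) without TRβ, against 276 CPM ± 32.8 (SD, n = 4) with it, a log2 difference of 0.20 ± 0.13 (SE) that did not pass. Ncor1, Ncoa1, Ncoa2 and Ncoa3 were higher in Thrb-KO without overlap within both sets of libraries, as were 17.7% of all genes.

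In the hyperthyroid state the genotypes overlapped in Ncoa1 over all libraries. The mean of the 5 Thrb-KO libraries was 162 CPM ± 20.7 (SD), and that of the 4 WT libraries 173 CPM ± 46.7 (SD). In replicates 1 and 2 Thrb-KO was lower without overlap, by a log2 difference of -0.22 that was not called (limma adjusted p = 0.0602), and in replicates 3 to 5 the difference was 0.16 with overlap. Across the groups the Ncoa1 mean was lowest in hypothyroid WT. In unscaled CPM, libraries of that group overlapped those of hyperthyroid WT and lay below all Thrb-KO libraries. The other 3 groups overlapped each other. Ncoa2 had the largest difference here, with Thrb-KO libraries at 139 to 188 CPM (median 165) against 165, 169.7, 83.5 and 118 CPM in WT, higher in 4 of 4 pairs. By limma none of the 9 genes was called (12.1% of all genes were). Ncoa2 stood at a log2 difference of 0.35 ± 0.16 (SE; limma unadjusted p = 0.0485, adjusted p = 0.200). With the replicate number as a block Ncoa2 (0.39, limma adjusted p = 0.0250) and Tbl1xr1 (0.26, limma adjusted p = 0.0180) were called, beside 19.3% of all genes. The library set as a term gave 0.38 for Ncoa2 (limma adjusted p = 0.0145) and 0.26 for Tbl1xr1 (limma adjusted p = 0.0247). The Ncoa2 value rests on replicates 3 to 5, where it was 0.60 against 0.15 in replicates 1 and 2, and without hyperthyroid WT replicate 3 it fell to 0.14, while the Tbl1xr1 difference, 0.20 over all libraries without the block, came to -0.0032.

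**Figure D3:**
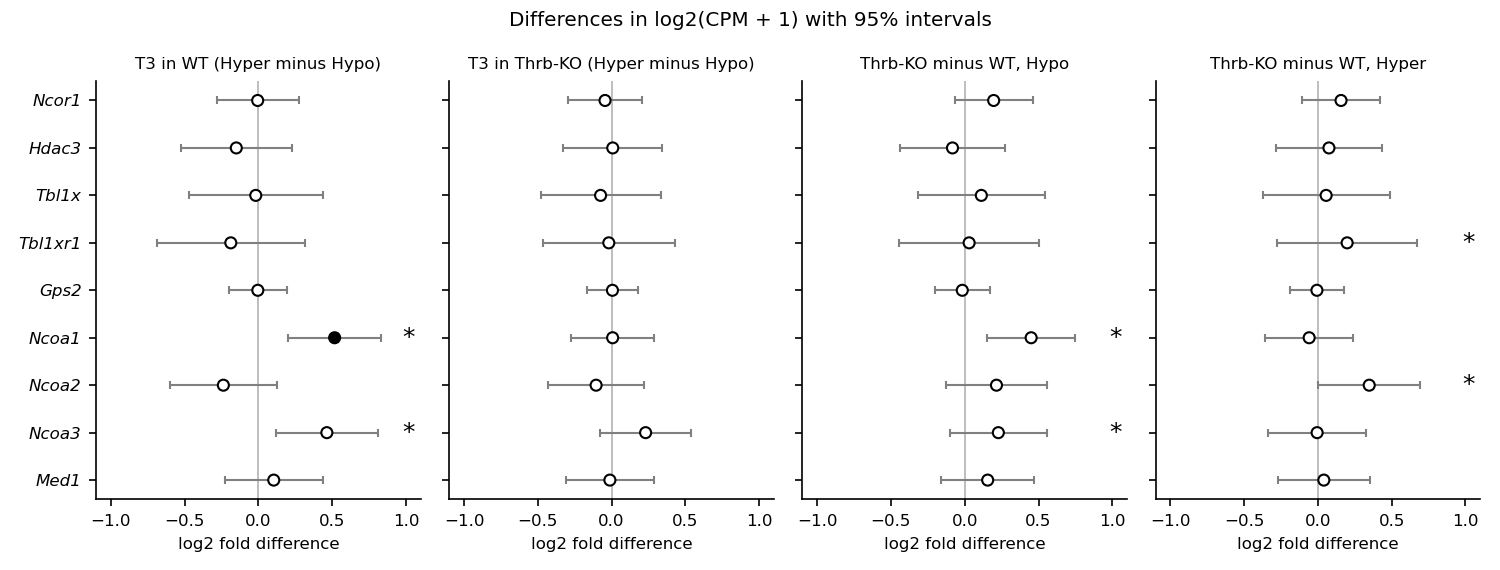
Log2 fold difference of each gene in 4 comparisons (horizontal axes, log2(CPM + 1) scale), with 95% intervals from limma. The filled point marks the call at an adjusted p under 0.05, open points are not called, and stars mark calls in the fit with the replicate number as a block. Ncoa1 and Ncoa3 lie to the right under T3 in WT, at 0.52 and 0.46, and nearer to 0 under T3 in Thrb-KO.

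The genes that tracked each member most closely over the 18 libraries were found by the root mean square difference of centred log2(CPM + 1). Agap1 was the closest gene to both Ncoa1 (0.09) and Ncoa3 (0.08), followed by Agtpbp1 for Ncoa1 and Aff3 for Ncoa3. Ncor1 was closest to Srpk2 (0.04) and Bptf (0.04), and Hdac3 to Snx17 (0.05) and Cnot8 (0.06). These values describe shared libraries, including the sets, and the median over all genes was 0.34 for Ncoa1 and 0.26 for Ncor1. For Tbl1x the closest were Ikbkg and Dync1h1, for Tbl1xr1 Klhl15 and Ddi2, for Gps2 Srp68 and 2210016F16Rik, for Ncoa2 Usp24 and Acap2, and for Med1 4632415L05Rik and Rprd1a.

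Few other cofactor genes were called under T3 in WT. Of 25 further corepressor genes, 2 rose and 1 fell by limma, of 29 further coactivator genes 3 rose and 1 fell, and of 32 further Mediator genes none rose and 1 fell, against 6.89% of all genes higher and 12.4% lower. Past 1.5-fold in WT, as 9.46% of all genes were, stood the corepressor Hr (hairless), a well-known T3 target, which went from 24.7 CPM ± 4.61 to 181 CPM ± 37.9 (SD, n = 4 each), and Hdac9, a class IIa deacetylase, which went from 27.2 CPM ± 6.84 to 12.2 CPM ± 3.52 (SD, n = 4 each). Hr also rose in Thrb-KO, from 52.1 CPM ± 11.8 to 234 CPM ± 19.7 (SD, n = 5 each), and it was higher in hypothyroid Thrb-KO than in hypothyroid WT. Hdac9 stayed at 15.6 CPM in both Thrb-KO groups, and its interaction was called at 1.099 ± 0.25 (SE; limma adjusted p = 0.0125).

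Of the receptor genes, 3 of 5 fell with T3 in WT, where 12.4% of all genes were called lower. These were Thrb, Thra and Rxrg, the last at -0.41 ± 0.14 (SE; limma adjusted p = 0.0486) and named after its values were seen. Thrb went from 257 CPM ± 27.3 to 104 CPM ± 22.8 and Thra from 76.4 CPM ± 9.68 to 55.8 CPM ± 6.39 (SD, n = 4 each). In Thrb-KO Thrb and Thra gave log2 differences of -0.06 ± 0.12 and -0.13 ± 0.09 (SE).

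TRβ peaks lay within 20 kb of 6 of the 9 genes in untreated pituitary (Tbl1x, Tbl1xr1, Gps2, Ncoa1, Ncoa2 and Ncoa3), against 41.3% of the 12898 tested genes with coordinates. Long genes met peaks more often. Of tested genes of at least 40 kb, 49.1% had a pituitary peak, and of the 7 members that long 5 did. The 9 pituitary peaks at these genes held 12 to 45 reads of HAB;BirA, with folds over BirA from 4.17 to 16.3 (median 7.51), against medians of 18 reads and 10.0 fold over all 8051 pituitary peaks. In cerebral cortex 4 genes had a peak (Ncor1, Ncoa1, Ncoa2 and Ncoa3), against 34.9% of tested genes, and a T3-regulated ATAC site was listed at 1 gene (Ncoa1), against 7.79%. No list held a peak within 20 kb of Hdac3 or Med1. Peak coordinates are those of mm9, counted from 1.

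**Figure D4:**
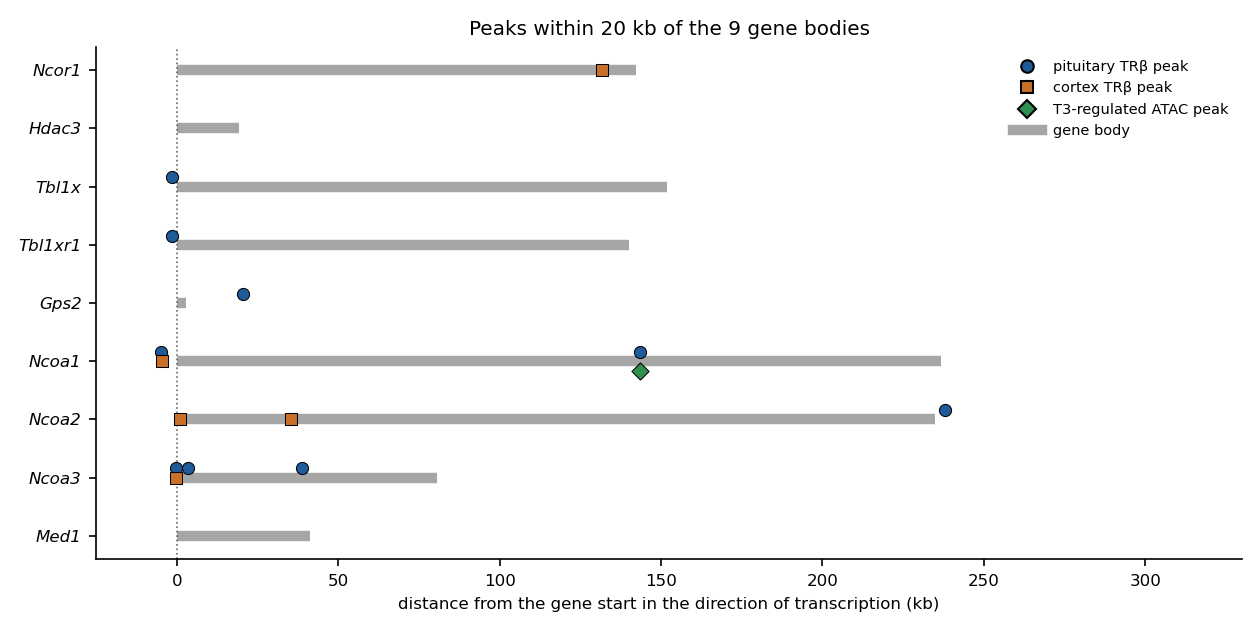
Position of the peaks within 20 kb of each gene (horizontal axis, distance in kb from the gene start along the direction of transcription). Grey bars are gene bodies, circles pituitary TRβ peaks, squares cortex TRβ peaks and the diamond the T3-regulated ATAC site. The pituitary peak and the ATAC site of Ncoa1 coincide inside the gene, and Ncoa3 holds 3 pituitary peaks.

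Ncoa1 carried the strongest pituitary peak over its control among these genes, in an intron at chr12:4340351-4340800, with 39 HAB;BirA reads against 2 BirA reads (16.3 fold, false discovery rate 3.05e-33). Of all pituitary peaks 12.7% held at least as many reads. The T3-regulated ATAC site at chr12:4340395-4340582 (adjusted p = 0.0049, the authors' value) lay wholly inside it, and no cortex peak did. Of all pituitary TRβ peaks 10.8% overlapped a T3-regulated ATAC site, and 4.26% of tested genes had such a pair within 20 kb. The ATAC site is shown whole because it is the one accessible element of these genes listed as T3-regulated, read on the plus strand:

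Ncoa1 intron ATAC site: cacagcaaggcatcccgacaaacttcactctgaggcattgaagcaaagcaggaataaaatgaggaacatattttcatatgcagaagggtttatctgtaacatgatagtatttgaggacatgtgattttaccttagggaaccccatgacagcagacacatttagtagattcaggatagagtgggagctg

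A further pituitary peak of Ncoa1 lay upstream of the gene at chr12:4488701-4489050 (16 reads against 3, 4.45 fold), and a cortex peak at chr12:4488651-4488850 (14 reads against 0) overlapped it.

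Thyroid hormone receptors bind direct repeats of a hexamer spaced by 4 bases (DR4), searched here as AGGTCA followed after 4 bases by another AGGTCA, on both strands with at most 2 mismatches over its 12 fixed bases, in 300 bases centred on each peak. Of all pituitary TRβ peaks 20.1% held such a repeat, of cortex peaks 6.35% and of T3-regulated ATAC sites 30.2%. Among the 9 pituitary peaks of these genes 3 did, a pair in Ncoa3 and the one at Tbl1xr1. The Ncoa1 peaks held no repeat within 2 mismatches. Of the 7 RefSeq promoters (GRCm38) found for 6 of the 9 genes, none held one, against 3.02% of all RefSeq promoters.

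The peak at Tbl1xr1 and the shorter Ncoa3 peak are shown whole on the plus strand, with the repeat in capitals:

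Tbl1xr1 upstream peak, chr3:21973951-21974200: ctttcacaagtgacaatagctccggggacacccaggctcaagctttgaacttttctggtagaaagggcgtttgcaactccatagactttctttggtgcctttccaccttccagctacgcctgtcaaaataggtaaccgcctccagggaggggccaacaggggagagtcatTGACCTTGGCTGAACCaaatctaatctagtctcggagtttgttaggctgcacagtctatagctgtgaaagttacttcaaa
Ncoa3 intron peak, chr2:165821351-165821550: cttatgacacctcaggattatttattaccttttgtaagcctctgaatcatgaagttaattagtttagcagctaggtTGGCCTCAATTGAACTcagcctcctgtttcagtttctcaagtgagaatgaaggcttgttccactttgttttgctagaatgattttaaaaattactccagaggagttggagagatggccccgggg

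Read along their own strand with the hexamers in capitals, the repeats of these peaks and of the further Ncoa3 intron peak compare as follows, each matching 10 of 12 bases:

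Tbl1xr1 upstream repeat: GGTTCAgccaAGGTCA
Ncoa3 first intron-peak repeat: AGTTCAattgAGGCCA
Ncoa3 second intron-peak repeat: AGGTGAggccAGTTCA

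Ncoa3 had 3 pituitary peaks. The one with the most reads covered the gene start at chr2:165817851-165818150, with 45 reads against 5 (7.51 fold), and a cortex peak (37 reads against 10, 3.15 fold) covered it too. The gene Gm11464 is annotated there as well, and its start was the nearest to the middle of the pituitary peak (17 bases). A pituitary peak covered the start of 4.98% of tested genes, and 9.9% of pituitary peaks held at least as many reads. The intron peaks, at chr2:165821351-165821550 (12 reads against 1) and chr2:165856701-165857150 (28 reads against 5), overlapped no cortex peak and no T3-regulated ATAC site. Of the 9 pituitary peaks at these genes, 2 overlapped a cortex peak.

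The peaks at corepressor genes held 10 to 20 reads. The Tbl1xr1 peak lay 1374 bases upstream of the gene with 20 reads against 4 (4.17 fold), and a Tbl1x peak lay 1452 bases upstream, at chrX:74754501-74754900, with 15 reads against 1 (12.5 fold). The peak counted for Gps2 was 17608 bases downstream, nearest to the start of Ybx2, with 14 reads against 2. Ncor1 had no pituitary peak within 20 kb and a cortex peak in an intron at chr11:62140351-62140550 with 10 reads against 0, where the gene Ttc19 is annotated too. Ncoa2 had a pituitary peak 2736 bases past its end (13 reads against 1), which lay nearer to the start of Prdm14, and cortex peaks in introns with 26 reads against 3 and 13 reads against 2. Each peak was called on merged libraries, so no spread between replicates stands behind these counts.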

How the data were processed

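The RNA-seq reads, single-end, were aligned by the authors with BBMap against mm9 RefSeq transcripts, and the deposited values are CPM of each transcript, unfiltered and not divided by length. Several transcripts of Med1, Ncoa2 and Ncor1 carry nearly equal values. CPM were whole multiples of 1 read for at least 99.997% of values (within 0.05), so reads could be recovered for edgeR and DESeq2. For ChAP-seq the authors deposited the read count of merged HAB;BirA and BirA libraries in each SICER (version 1.1) peak, a scaled ratio (fold over control), and a p-value and false discovery rate. In the ATAC list the authors deposited an adjusted p-value without its direction. The labels of the untreated pituitary BirA controls give their genotype inconsistently with their titles, and the titles were followed.

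The members and gene lists were chosen with earlier results of these data known. Genes named outside the members were those of the other lists past the adjusted p limit and 1.5-fold, Thrb and Thra, and the 2 closest genes per member, with Rxrg added after its values were seen. A gene that met this rule is not reported here. Groups came from the labels, and limma 3.58.1 (trend) was fitted on log2(CPM + 1) of 13145 genes over all 4 groups in 1 model without covariates. This main fit thus left out the library set, which entered as a term in an alternative. Nothing says that libraries of 1 group were made from separate litters or days, so p-values measure the spread between these pools. Self-tests on simulated reads were run with each tool. Alternatives were edgeR 4.0.16, DESeq2 1.42.0, other scalings, pseudocounts and filters, the library sets and leaving out each library.

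Same-numbered libraries of different groups deviated together (correlation over genes 0.13 to 0.815, 25 pairs), as did libraries of the same set with other numbers (0.271 to 0.755). Within a set the correlation of same-numbered libraries ran from -0.391 to 0.344 (median 0.01), and that of libraries with other numbers from -0.344 to 0.391. The pairing by number thus follows the library set, and blocked values are given where they change a call.

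Gene bodies came from GENCODE vM1 and peak sequences from NCBIM37, both on the mm9 build of the peak lists, and promoters from RefSeq on GRCm38.p6. ChAP-seq and ChIP-seq of treated mice were not analysed here.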

Additional observations from a re-analysis of the deposited data

How the results depend on the processing

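Under T3 in WT the number of genes called among the 9 was 1, with 19.3% of all genes called. It was 2 (Ncoa1 and Ncoa3) with CPM scaled by TMM (20.5% of all genes) or by DESeq2 size factors (20.5%), and with the replicate block (28.9%). It was also 2 with edgeR under either scaling, with DESeq2, and with the library set as a term with or without TMM scaling. It was 3 in replicates 1 and 2 alone (31.6% of all genes called), 0 in replicates 3 to 5 alone (17.6%) and 0 with the groups compared alone (10.3%). Leaving out 1 library gave 0 to 2. Under T3 in Thrb-KO the number called among the 9 was 0, with 1.79% of all genes called. It went to 1 (Ncoa3) with the library set and TMM scaling together, an alternative chosen after seeing the data. For the interaction the number went from 0 (5.46% of all genes called) to 1 (Ncoa1) with DESeq2 (8.65%), the replicate block (10.8%) or the library set. It went to 2 (Ncoa1 and Ncoa3) with the library set and TMM scaling (14.2%) and in replicates 1 and 2 alone (9.95%). Leaving out 1 library gave 0 to 1. For Thrb-KO against WT in the hypothyroid state the number was 0 (6.85% of all genes called). It went to 1 with TMM scaling (8.49%), DESeq2 size factors, DESeq2 (11.9%) or the groups compared alone. Each set alone also gave 1 (10.7% in replicates 1 and 2, 8.28% in replicates 3 to 5). It went to 2 with the replicate block (14.3%) or the library set, with or without TMM scaling. On leaving out 1 library it was 0 to 1, the 1 each time being Ncoa1 (when hyperthyroid WT replicate 1, 2 or 3 was the library left out). In the hyperthyroid state the number was 0 (12.1% of all genes called). It went to 2 with the replicate block (19.3%) or the library set, with or without TMM scaling, and to 1 in replicates 3 to 5 alone. Where a count above has no share of all genes beside it, whether it exceeds that share cannot be judged from it. The replicate block changed no other call of the 9 genes. Of 1521 recomputed values 43 gained a call, 6 lost one and none with a call changed sign, whereas 157 uncalled values changed sign. TMM scaling moved the median log2 change of all genes under T3 in WT from -0.04 to 0.02 and the split of calls from 906 higher and 1630 lower to 1278 and 1413. The 6 genes with a pituitary peak became 8 within 50 kb (55.9% of tested genes), 2 with peaks overlapping the gene body (23.6%) and 3 at a false discovery rate under 1e-10. The 1 gene with an ATAC site became 0 at that limit. The share of all tested genes at that limit was not taken. The 3 repeats became 0 at 1 mismatch.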
